A study of Mus musculus with 6 samples.

Results

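The solute carriers of amino acids, small peptides and amino acid-like neurotransmitters were taken as every probe set that the array annotation assigned to a single gene whose symbol began with Slc1a, Slc3a, Slc6a, Slc7a, Slc15a, Slc32a, Slc36a, Slc38a or Slc43a. The pattern matched 137 of the 45101 probe sets on the array and 69 of its 18193 single-gene symbols. Of these, 133 probe sets belonged to 66 carrier genes, and 4 probe sets belonged to 3 transcripts named for lying opposite a carrier (Slc36a1os, Slc6a19os and Slc7a6os), which are described apart. The RNA came from the cochlear sensory epithelia (CSE) of Swiss Webster mice, a strain with normal hearing past this age, at postnatal day 3 (P3) and at 8 weeks (adult). Each of the 6 arrays, 3 per stage, held a separate pool of epithelia from 20 mice, with the bony capsule, modiolus, spiral ligament and stria vascularis dissected away. No treatment or genetic change was applied to either stage. The stages also differed in how the mice were killed, with cervical dislocation used for adults, and in what the dissected epithelium held, the epithelial ridges at P3 and the inner sulcus and interdental cells in adults, so age, killing and tissue collected cannot be told apart.

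These carriers move amino acids across membranes. The Slc1 and Slc6 families use the sodium gradient to clear glutamate, GABA, glycine, monoamines, taurine and creatine, and in the cochlea glutamate is the transmitter of the hair cell synapse. Slc7 light chains pair with Slc3 heavy chains and mostly exchange amino acids. The Slc38 family carries glutamine and related neutral amino acids. Carriers of Slc15 and most of Slc36 are driven by protons, Slc43 includes carriers of large neutral amino acids, and Slc32 fills synaptic vesicles with GABA and glycine.

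Signals are MAS5.0 intensities scaled by the authors to the same trimmed mean on every array, and all triplets below list replicates 1, 2 and 3 in that order. Probe sets for odorant, pheromone and bitter taste receptors, 83 in all, served as a measure of background, and an array's background was set where 90% of them lay below. That level was 34.5, 9.16 and 6.29 for the P3 arrays and 16.3, 9.05 and 8.71 for the adult arrays. P3 replicate 1 stood apart, with a Gapdh signal 82.0 times higher at the 3' than at the 5' probe set, against 0.707 to 2.07 times on the other 5 arrays. Of the 137 probe sets, 62 to 100 were above background on a given array, the fewest on P3 replicate 1. For carriers and genes of the pathway lists that are named, values are therefore also given without single arrays where this ended or made a call, and a lone number in parentheses after a left-out array or a log2 difference is limma's adjusted p.

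Of the 66 carrier genes, 48 had a probe set that exceeded background on 3 or more arrays and were tested, 29 of them at a probe set above background on all 6 arrays. A probe set was called when limma gave a Benjamini-Hochberg adjusted p under 0.05 over all 29036 probe sets tested and the geometric means differed at least 2-fold. Of 88 carrier probe sets tested, 11 were called, 8 higher in adults and 3 higher at P3, which is 12.5% against 7.26% of all probe sets tested (3.39% higher in adults and 3.87% higher at P3). The SAM alternative on linear signals also called 11, 7 and 4, against 7.88% of all probe sets, but only 8 were the same. It did not call Slc6a20a, Slc36a2 or the Slc38a2 probe set of highest mean signal. In their place it called a probe set each of Slc15a3, Slc38a1 and Slc38a4. At the probe set of highest mean signal per gene, hereafter the brightest probe set, 8 of 48 carrier genes were called, or 16.7% against 10.1% of the 13743 genes tested. Slc3a2, Slc6a20a, Slc7a2, Slc7a8, Slc36a2 and Slc38a2 were higher in adults, 6 genes against a background of 4.58%. Slc6a14 and Slc15a2 were higher at P3, 2 genes against a background of 5.54%, and Slc7a6 was called higher at P3 at a probe set other than its brightest. In pooled tissue, fewer cells of a type and less RNA per cell cannot be told apart.

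**Figure D1:**
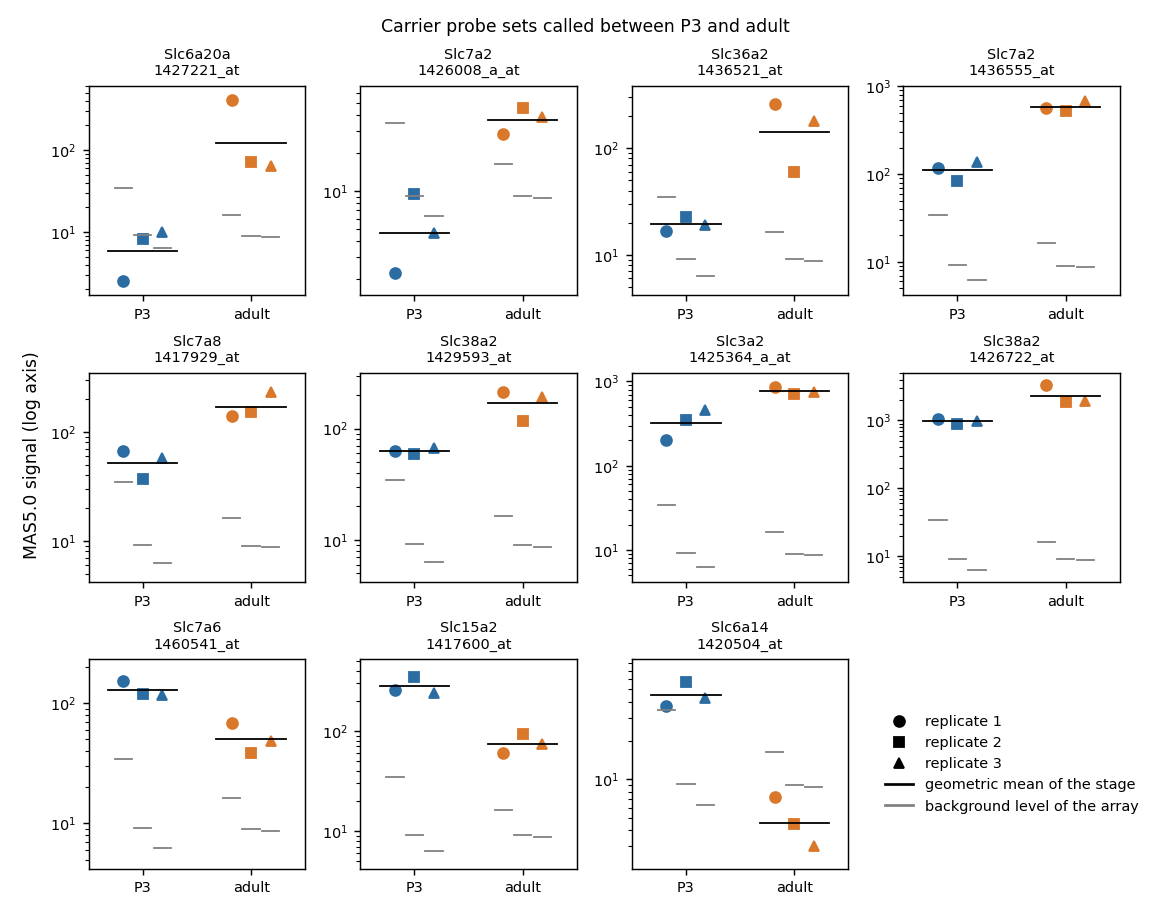
MAS5.0 signal (log axis) of the 11 called carrier probe sets on 3 P3 and 3 adult arrays, with the geometric mean of each stage in black and the background of each array in grey. The stages do not overlap in any of the 11 panels, and in adults Slc6a14 lies below background on all 3 arrays.

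More carrier genes had higher signals in adults than at P3. The log2 difference (adult minus P3) was above 0 for 33 of 48 carrier genes, or 68.75%, against 47.7% of all genes tested, and its median was 0.30 against -0.04. Without single arrays, an alternative added after the data were seen, 29 to 34 genes were above 0, the fewest without P3 replicate 1 (60.4% against 48.2% of all genes). Some marker lists of other cell types were also higher in adults. Median differences were below 0 for fibroblasts and meninges (-1.19), supporting cells (-0.36), bone cells (-0.28), hair cells (-0.12) and endothelial cells and pericytes (-0.12). In the endothelial and pericyte list the 1 call was higher in adults, with sums of 1810 to 2932 at P3 and 2159 to 3506 in adults. Erythroid markers, 3 of 6 called higher in adults, summed to 404 to 585 at P3 and 1289 to 1853 in adults, and anterior pituitary markers, 2 of 4 called, to 280.0 to 608 and 1167 to 5194, with Lhb above background on no array. Markers of stria vascularis and melanocytes, 2 of 9 called higher in adults and 1 at P3, summed to 2000 to 2881 and 3524 to 11638, with Tyrp1 above background on no array. The part of these cells in the carrier differences was not tested. A difference of at least 2-fold in either direction was measured for 45.8% of the carrier genes against 24.6% of all genes, and 27 carrier probe sets past 2-fold were not called. Some of these differences rest on signals below background. With signals raised to background, Slc7a11 (0.19), Slc15a3 (0.84), Slc36a3 (-0.57) and Slc6a11 (-0.93) fell under 2-fold. Slc6a20a (3.08) and Slc6a14 (-2.05) stayed past it, and the 2 shares were not counted again. The stages did not overlap at any of the 11 called probe sets, as at 31.1% of all probe sets tested, and they did not overlap for 15 of 48 carrier genes, 9 higher in adults and 6 at P3. That share, 31.25%, lies below the 36.3% of all genes tested.

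Families differed in how many of their genes could be tested and in where their medians lay. Among the high-affinity glutamate and neutral amino acid carriers of Slc1, 5 of 7 genes were tested, none was called and the median difference was -0.16, which turned above 0 on leaving out replicate 2 (0.16) or 3 (0.27) of P3 or replicate 3 of the adults (0.11) and with the mean of all tested probe sets of a gene (0.36). Slc6, the sodium- and chloride-coupled carriers, had 11 of 20 genes tested, 1 called in each direction and a median of 0.58. Slc7 had 11 of 15 tested, 2 called higher in adults and a median of 0.09. All 9 Slc38 genes were tested, with 1 called higher in adults and a median of 0.15. The 4 Slc36 genes had 1 called higher in adults and a median of 0.28, and 4 of 5 Slc15 genes were tested, with 1 called higher at P3 and a median of 0.97. In Slc43 none of 3 genes was called and the median was 0.23. Of the 2 heavy chains of Slc3 only Slc3a2 was tested, and the single Slc32 gene was not tested. The differences between families were not tested.

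**Figure D2:**
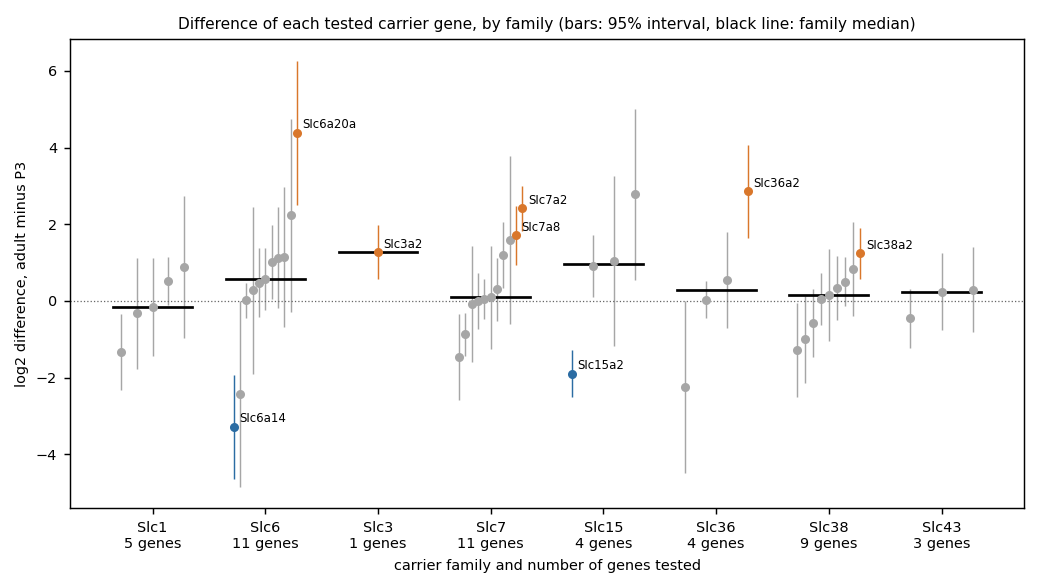
Log2 difference (adult minus P3) of the 48 tested carrier genes at their brightest probe set, by family, with 95% intervals, coloured where called and with the family median as a black line. The family medians lie between -0.16 and 1.27, and the single genes spread from -3.29 to 4.39.

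Promoter sequences of called genes are shown because several of these carriers are textbook targets of the response to amino acid shortage, which acts through an element of the letters TGATGNAA. Sequences are from RefSeq (GRCm38.p6), 250 bases upstream of the start, 5′ to 3′ on the gene's strand. Capitals mark a GC box (GGGCGG) or a TGATGNAA match on either strand. Slc38a2 lies at chr15:96699729-96699978, Slc3a2 at chr19:8713898-8714147 and Slc15a2 at chr16:36784963-36785212, all on the minus strand. Slc6a14 lies at chrX:21714650-21714899 on the plus strand. Slc7a11, the cystine carrier, at chr3:50443614-50443863 on the minus strand, was not called and is shown for its 2 matches to TGATGNAA.
Slc38a2: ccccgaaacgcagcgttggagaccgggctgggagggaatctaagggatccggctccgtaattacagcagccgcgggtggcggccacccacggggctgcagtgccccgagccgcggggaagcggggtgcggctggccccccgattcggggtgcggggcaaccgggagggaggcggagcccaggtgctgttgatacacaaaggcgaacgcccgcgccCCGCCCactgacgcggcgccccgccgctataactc
Slc3a2: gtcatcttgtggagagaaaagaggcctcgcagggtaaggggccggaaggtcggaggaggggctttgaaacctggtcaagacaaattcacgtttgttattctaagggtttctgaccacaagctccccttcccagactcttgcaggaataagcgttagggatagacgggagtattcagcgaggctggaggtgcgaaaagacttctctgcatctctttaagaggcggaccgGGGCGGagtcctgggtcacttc
Slc15a2: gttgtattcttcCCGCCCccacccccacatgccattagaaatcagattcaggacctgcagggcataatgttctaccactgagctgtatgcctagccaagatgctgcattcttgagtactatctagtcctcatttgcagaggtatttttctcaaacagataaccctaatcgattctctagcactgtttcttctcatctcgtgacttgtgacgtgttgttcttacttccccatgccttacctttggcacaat
Slc6a14: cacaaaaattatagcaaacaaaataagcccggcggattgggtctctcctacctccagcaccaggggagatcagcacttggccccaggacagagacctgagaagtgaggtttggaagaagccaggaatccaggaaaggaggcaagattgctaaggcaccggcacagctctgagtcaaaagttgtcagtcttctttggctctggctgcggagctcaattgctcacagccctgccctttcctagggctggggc
Slc7a11: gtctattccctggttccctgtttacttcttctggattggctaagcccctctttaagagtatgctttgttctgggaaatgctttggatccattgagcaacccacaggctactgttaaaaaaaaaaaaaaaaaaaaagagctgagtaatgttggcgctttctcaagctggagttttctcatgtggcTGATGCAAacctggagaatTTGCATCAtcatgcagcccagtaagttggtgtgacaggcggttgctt

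Of 66 carrier genes, 48 had a promoter in the table, 7 of them among the 9 called genes. These genes had 69 promoters in all, so shares are given over single promoters. TGATGNAA was found in 3.45% of the 32851 RefSeq promoters and in 4 of the 69, those of Slc6a21, Slc7a7 and Slc7a11, none of them called. The GC box was present in 32.7% of all promoters and in 46.4% of the 69. Counted by gene, at least 1 promoter held it in 29 of the 48 carrier genes (60.4%). Among the 7 called genes 6 did, the exception being Slc6a14. TATAAA occurred in 12.4% of all promoters and in 8.70% of the 69, none of a called gene. The core of the antioxidant response element, TGANNNNGC, was found in 35.2% of all promoters and in 46.4% of the 69, among the called genes in Slc38a2 and Slc7a6. Matches of different motifs were counted separately where they overlapped. A match describes letters in this window only.

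Cationic amino acid carriers, which bring in arginine and lysine, held the carrier with the smallest adjusted p. Slc7a2, an arginine carrier with a low-affinity and a high-affinity splice form, gave signals of 118, 83.3 and 137 at P3 and 568, 527 and 678 in adults. All adult arrays lay above all P3 arrays, and limma gave a log2 difference of 2.41 (SE 0.25, adjusted p = 0.00186). The call was made in each of 16 alternative analyses, including those without any single array, where the difference ranged from 2.21 to 2.57. A second Slc7a2 probe set gave 2.24, 9.51 and 4.60 at P3 and 28.1, 45.5 and 38.4 in adults, a difference of 2.99 (SE 0.71, adjusted p = 0.0389). At P3 it was above background on 1 array. The call on this probe set was lost without P3 replicate 2 (adjusted p = 0.0502), P3 replicate 3 (0.0980), adult replicate 1 (0.0851), adult replicate 2 (0.122) or adult replicate 3 (0.179). The other tested Slc7a2 probe sets had differences of 2.33 (adjusted p = 0.119) and 1.31 (0.344), so all 4 pointed to adults. The first of these read 36.4, 4.05 and 6.72 at P3, and without P3 replicate 1 it was called (3.26, adjusted p = 0.00720).

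Slc7a1, the widely used cationic carrier, read 338, 311 and 352 at P3 and 271, 386 and 395 in adults. The stages overlapped, with a difference of 0.05 (SE 0.23, adjusted p = 0.915, 95% interval -0.47 to 0.57). Slc7a3 read 73.8, 39.0 and 31.8 at P3 and 20.9, 17.3 and 12.01 in adults, lower on every adult array but not called (-1.47, SE 0.49, adjusted p = 0.113). Slc7a14, a lysosomal member of the group, read 68.2, 60.3 and 44.3 at P3 and 206, 81.3 and 131 in adults, higher on every adult array and not called (1.195, SE 0.38, adjusted p = 0.0998). Slc7a4 had 2 tested probe sets with differences of 0.30 and -0.40, neither called.

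The heavy chain Slc3a2 (CD98), which takes light chains to the cell surface, read 203, 351 and 464 at P3 and 851, 719 and 754 in adults. Every adult array lay above every P3 array, with a difference of 1.27 (SE 0.31, adjusted p = 0.0434). This call depended on most arrays. It was lost without P3 replicate 1, where the fold fell below 2 (0.94, adjusted p = 0.0344), P3 replicate 2 (0.100), adult replicate 1 (0.107), adult replicate 2 (0.0815) or adult replicate 3 (0.154). Slc3a1, the heavy chain of the kidney cystine carrier, was above background on no array.

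Of its light chains, Slc7a8 (LAT2), an exchanger of large and small neutral amino acids, read 66.9, 37.1 and 57.3 at P3 and 141, 151 and 233 in adults. The stages did not overlap and the difference was 1.71 (SE 0.33, adjusted p = 0.0199), lost without replicate 2 (0.0690) or 3 (0.0574) of P3 or replicate 3 of the adults (0.115). Slc7a6 (y+LAT2), which exports arginine in exchange for neutral amino acids, went the other way, with 154, 119 and 116 at P3 and 67.8, 38.8 and 48.3 in adults. No adult array reached the P3 range, and the difference was -1.36 (SE 0.31, adjusted p = 0.0349). It was lost without P3 replicate 2 (0.108), P3 replicate 3 (0.101), adult replicate 2 (0.0767) or adult replicate 3 (0.141). At the brightest Slc7a6 probe set the signals were 134, 125 and 122 at P3 and 69.1, 63.5 and 75.9 in adults, also without overlap and not called (-0.87, SE 0.25, adjusted p = 0.0692). Slc7a6os, a protein-coding gene on the opposite strand beside Slc7a6, had differences of -0.83 (adjusted p = 0.320) and -0.52 (0.552) at its 2 tested probe sets.

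Slc7a5 (LAT1), the light chain for essential amino acids, read 208, 219 and 449 at P3 and 282, 234 and 302 in adults. Its stages overlapped and the difference was -0.01 (SE 0.32, adjusted p = 0.989). Slc7a11 (xCT), which brings in cystine for glutathione, read 1.55, 10.9 and 7.04 at P3 and 23.7, 7.51 and 18.5 in adults, above background on 2 arrays of each stage. It overlapped between stages and was not called (1.59, SE 0.96, adjusted p = 0.362). Slc7a7 and Slc7a10 had differences of 0.09 and -0.08. Slc7a9, Slc7a12, Slc7a13 and Slc7a15 had no tested probe set.

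Glutamine carriers of Slc38 included one called gene. Slc38a2 (SNAT2), which cells induce when amino acids run short, read 1059, 884 and 982 at P3 and 3381, 1861 and 1912 in adults. Every adult array lay above the P3 arrays, most of all adult replicate 1, and the difference was 1.24 (SE 0.29, adjusted p = 0.0377). Another probe set of the gene read 62.7, 59.4 and 67.0 at P3 and 213, 117 and 194 in adults, with 1.42 (SE 0.30, adjusted p = 0.0259), and the third gave 0.88 (adjusted p = 0.310). At the brightest probe set SAM made no call. There the limma call was lost without P3 replicate 2 (0.138) or P3 replicate 3 (0.103). It was also lost without adult replicate 1 (difference 0.96, 0.0660), adult replicate 2 (0.0537) or adult replicate 3 (0.108). At the other it was lost without P3 replicate 2 (0.0901), P3 replicate 3 (0.0759), adult replicate 1 (0.0720) or adult replicate 3 (0.137).

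The neighbouring gene Slc38a1 (SNAT1), a glutamine carrier of neurons, was not called at 2 probe sets. Its brightest read 344, 523 and 582 at P3 and 827, 540 and 668 in adults, overlapping between stages (0.50, SE 0.28, adjusted p = 0.313). The other read 67.7, 122 and 149 at P3 and 265, 207 and 250 in adults without overlap (1.16, SE 0.32, adjusted p = 0.0659). Slc38a4, next to Slc38a2 on the other side, read 34.6, 24.0 and 25.3 at P3 and 10.4, 17.5 and 8.01 in adults. It was lower on every adult array, above background on 1 of them, and was not called (-1.28, SE 0.54, adjusted p = 0.196). Slc38a3 (SNAT3), the glutamine carrier of astrocytes, read 53.4, 54.2 and 91.2 at P3 and 271, 58.5 and 92.5 in adults, where only adult replicate 1 was well above the rest (0.83, SE 0.54, adjusted p = 0.402). Slc38a9, the lysosomal arginine sensor, and Slc38a10 had differences of both signs at 7 and 6 tested probe sets, none called. Slc38a5, Slc38a6 and Slc38a7 were not called, with adjusted p = 0.265, 0.410 and 0.894.

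Among the peptide carriers, Slc15a2 (PEPT2), which takes up di- and tripeptides, had the smallest adjusted p among those higher at P3. It read 258, 345 and 241 at P3 and 60.3, 92.9 and 74.0 in adults. No adult array came near the P3 range, and the difference was -1.90 (SE 0.27, adjusted p = 0.00585), called in all 16 alternatives and ranging from -2.06 to -1.74 without single arrays. The other 2 tested Slc15a2 probe sets were not called, with 0.16 (adjusted p = 0.938, 95% interval -1.93 to 2.25) and -0.73 (0.517, -2.11 to 0.66). Slc15a3, a lysosomal histidine and peptide carrier of immune cells, read 0.820, 6.82 and 8.28 at P3 and 25.4, 25.2 and 23.6 in adults. The stages did not overlap but P3 replicate 1 lay far below its fellows, and it was not called (2.78, SE 0.98, adjusted p = 0.127). At P3 it was above background on 1 array, and the background of P3 replicate 1 (34.5) exceeded every adult signal. With signals raised to background the difference was 0.84 (adjusted p = 0.520). Without P3 replicate 1 Slc15a3 was called (1.72, adjusted p = 0.0496). Slc15a4, a relative in the same compartment, read 45.4, 87.4 and 99.5 at P3 and 110, 158 and 150 in adults, without overlap and not called (0.91, SE 0.35, adjusted p = 0.161). Slc15a5, above background on 3 arrays, overlapped between stages and was not called (1.04, SE 0.97, adjusted p = 0.567). Macrophage and microglia markers measured beside them had 1 gene called in each direction of 10, with summed signals of 1458 to 2039 at P3 and 2604 to 4078 in adults, and granulocyte markers were all 10 called higher in adults, with sums of 118 to 360 at P3 and 3958 to 17991 in adults. The part of these cells in the Slc15 results was not tested.

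Of the Slc36 carriers, Slc36a2 (PAT2), which carries glycine and proline, read 16.7, 22.6 and 19.1 at P3 and 257, 59.5 and 181 in adults. The adult arrays all lay above the P3 arrays but spread widely among themselves, with a difference of 2.86 (SE 0.53, adjusted p = 0.0166). It was lost without adult replicate 1 (2.43, adjusted p = 0.0525) or adult replicate 3 (2.68, 0.100), and without adult replicate 2 it was 3.48 (0.00608). SAM did not call Slc36a2. Its neighbours on the chromosome were not called. Slc36a3 read 39.4, 10.8 and 13.5 at P3 and 2.59, 1.74 and 11.8 in adults, with overlap (-2.25, SE 0.99, adjusted p = 0.212). Slc36a1 gave 0.54 (adjusted p = 0.600). Slc36a4, a high-affinity proline and tryptophan carrier, read 228, 290 and 291 at P3 and 256, 277 and 285 in adults, a difference of 0.02 with a 95% interval of -0.46 to 0.51.

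The Slc6 carriers of proline and other amino acids had 1 gene called in each direction. Slc6a20a, a proline and imino acid carrier, read 2.55, 8.15 and 9.95 at P3 and 408, 72.3 and 64.2 in adults. Only 1 P3 array exceeded background while all adult arrays did, and adult replicate 1 was far above the other adult arrays. The difference was 4.39 (SE 0.82, adjusted p = 0.0171), and 3.08 (0.0236) with signals raised to background. The call was lost without adult replicate 3 (4.86, adjusted p = 0.0527). Without adult replicate 1 the difference was 3.53 (0.0478), and without P3 replicate 1 it was 3.78 (0.0245). SAM did not call Slc6a20a. Its close copy Slc6a20b was above background on no array. Slc6a14, a broad carrier of neutral and cationic amino acids, read 37.2, 57.0 and 42.9 at P3 and 7.21, 4.45 and 3.01 in adults. All P3 arrays exceeded background and no adult array did, so the signal was at least 4.14-fold higher at P3, with a fitted difference of -3.29 (SE 0.60, adjusted p = 0.0152). That call was lost without replicate 2 (0.0998) or 3 (0.0768) of P3 or replicate 3 of the adults (0.0612). The second Slc6a14 probe set also lay below background on every adult array, and was at least 1.99-fold higher at P3 and was not called (adjusted p = 0.145).

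Other members of this group were not called. Slc6a15, a neuronal carrier of branched-chain amino acids and proline, read 219, 376 and 356 at P3 and 705, 292 and 471 in adults, overlapping (0.58, SE 0.36, adjusted p = 0.376). Slc6a17, found on synaptic vesicles, read 123, 59.9 and 85.7 at P3 and 450, 79.7 and 183 in adults. Its stages overlapped and adult replicate 1 was highest (1.13, SE 0.58, adjusted p = 0.281), and its other 2 probe sets gave 2.28 and 1.02. The brain proline carrier Slc6a7 gave 1.15 (SE 0.80, adjusted p = 0.434). Slc6a16, Slc6a18, Slc6a19 and Slc6a21 had no tested probe set.

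By limma with stage as sole term and arrays weighted equally, no carrier of a classical transmitter was called with all 6 arrays. Array weights called a probe set of Slc1a1, of Slc1a3, of Slc6a11 and of Slc6a13, and a block for replicate number called Slc6a13. In addition, 1 Slc1a3 probe set was called with 1 array left out. Slc1a3 (GLAST), the glutamate carrier of glia and of the supporting cells around inner hair cells, read 344, 349 and 313 at P3 and 643, 324 and 533 in adults. Adult replicate 2 fell within the P3 range and the difference was 0.52 (SE 0.28, adjusted p = 0.301). A second probe set of it read 145, 163 and 165 at P3 and 409, 187 and 342 in adults, without overlap and not called (0.91, SE 0.31, adjusted p = 0.115). Without adult replicate 2 it was called (1.25, adjusted p = 0.0295). The 6 Slc1a3 probe sets ranged from -0.78 to 1.396. Slc1a2 (GLT-1), the main glutamate carrier of astrocytes, read 55.7, 243 and 283 at P3 and 153, 144 and 125 in adults. P3 replicate 1 lay below all other arrays and its fellows above all adult arrays (-0.16, SE 0.56, adjusted p = 0.894). Without P3 replicate 1 the difference was -0.91 (adjusted p = 0.0425), with a fold under 2. Slc1a1, the neuronal glutamate carrier, gave -0.32 (adjusted p = 0.803). Slc1a4, an exchanger of serine, alanine and cysteine, read 174, 86.5 and 88.0 at P3 and 71.2, 29.3 and 39.7 in adults. It was lower on every adult array and not called (-1.33, SE 0.43, adjusted p = 0.103), and all 3 of its tested probe sets pointed to P3. Slc1a5, the glutamine exchanger, gave 0.88 (adjusted p = 0.562).

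Neither GABA carrier tested was called without array weights or a block for replicate number. Slc6a11 (GAT3) read 36.3, 17.1 and 14.9 at P3 and 16.8, 3.32 and 1.07 in adults, with overlap through adult replicate 1 (-2.43, SE 1.07, adjusted p = 0.212). Slc6a13 (GAT2), found in meninges and liver, read 55.7, 12.1 and 5.36 at P3 and 359, 38.4 and 27.2 in adults. Replicate 1 was the highest array of each stage and the stages overlapped (2.23, SE 1.11, adjusted p = 0.266). Its neighbour Slc6a12, the betaine carrier, was not tested and read 68.0, 9.67 and 2.03 in adults. For the vesicular carrier Slc32a1 the highest signals of its 4 probe sets were 48.8 on P3 replicate 1 and 48.4 on adult replicate 1, each at a different probe set and not repeated on the other arrays. The glycine carrier Slc6a9 (GlyT1) read 103, 45.2 and 81.4 at P3 and 133, 70.7 and 109 in adults, overlapping (0.48, SE 0.39, adjusted p = 0.506), and the neuronal glycine carrier Slc6a5 was above background on no array.

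The taurine carrier Slc6a6 did not separate the stages, reading 578, 455 and 513 at P3 and 538, 539 and 475 in adults. Its difference was 0.01 (SE 0.21, adjusted p = 0.986) with a 95% interval of -0.46 to 0.48. The creatine carrier Slc6a8 read 537, 199 and 270 at P3 and 868, 385 and 723 in adults, overlapping through P3 replicate 1 (1.02, SE 0.42, adjusted p = 0.188). Without that array it was called (1.43, adjusted p = 0.0469). Its second probe set read 59.7, 38.7 and 60.6 at P3 and 115, 86.0 and 142 in adults, without overlap and not called (1.11, SE 0.33, adjusted p = 0.0791). Of the monoamine carriers, the dopamine carrier Slc6a3 was above background on no array and the serotonin carrier Slc6a4 on 2. The noradrenaline carrier Slc6a2 gave 0.27 (SE 0.96, adjusted p = 0.897).

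None of the Slc43 carriers was called. Slc43a2 (LAT4) read 166, 111 and 134 at P3 and 153, 72.5 and 86.2 in adults, overlapping (-0.46, SE 0.34, adjusted p = 0.456). Slc43a3 and Slc43a1 gave 0.29 and 0.23, neither called.

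**Figure D3:**
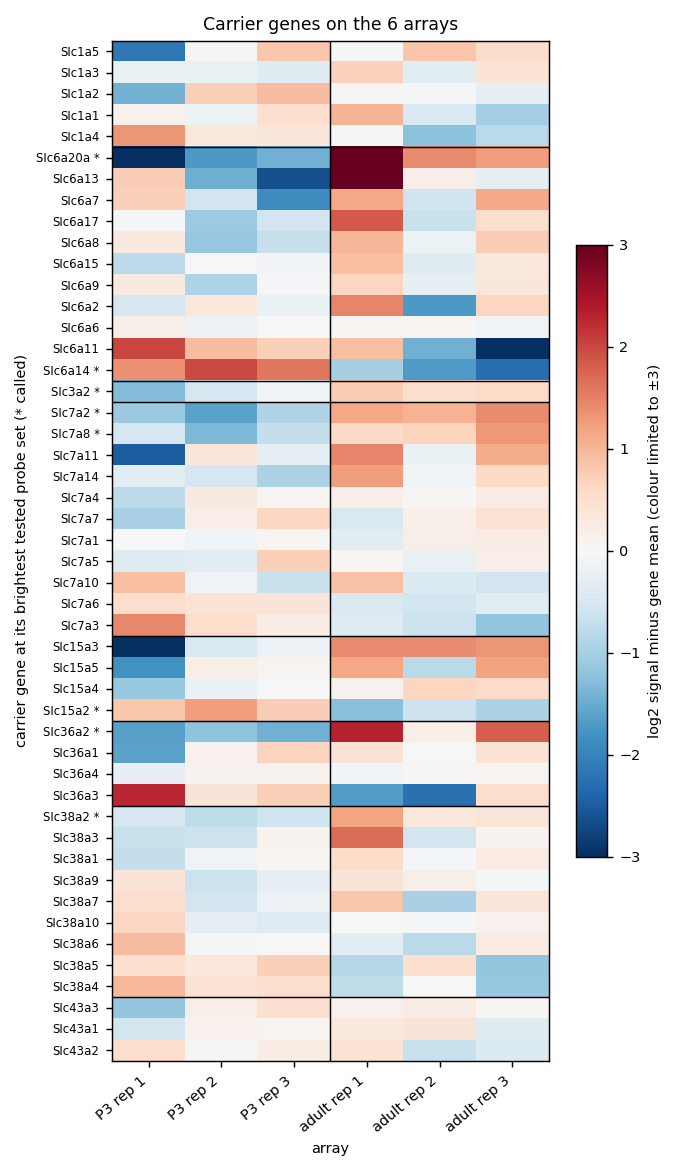
Log2 signal minus the gene's mean over 6 arrays for the 48 tested carrier genes at their brightest probe set (rows, by family, asterisk where called) on each array (columns). Adult replicate 1 holds the highest adult signal for 28 of the 48 genes, and P3 replicate 1 is more than 2-fold below both other P3 arrays for 9.

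Signals on adult replicate 1 stood out for many carriers, although the fewest carrier calls remained without adult replicate 3 (1 in each direction). Adult replicate 1 was the highest adult array for 28 of 48 carrier genes, or 58.3% against 40.8% of all genes tested, and lay more than 2-fold above both other adult arrays for Slc1a1, Slc6a11, Slc6a13, Slc6a17, Slc6a20a, Slc7a10 and Slc38a3, 14.6% of carriers against 6.47% of all genes. The same array was highest for the summed signals of neuron markers (31220 against 10722 and 16000 on adult replicates 2 and 3, and 6213 to 7425 at P3) and of oligodendrocyte markers (4951 against 1426 and 2104, and 827 to 1223 at P3). Hair cell markers (8787 against 3137 and 5328) and Schwann cell markers (9453 against 3269 and 5577) were also highest there. Their P3 sums were 1707 to 1998 and 3252 to 6128. Supporting cell markers were lowest there among adults (14330 against 17481 and 20600). Its actin signal was 4.18 times higher at the 3' than at the 5' probe set, against 1.60 and 2.63 times on the other adult arrays. Astrocyte marker sums were 13238, 7513 and 10867 in adults and 5391 to 6062 at P3. Of 12 neuron markers tested 3 were called higher in adults and 1 at P3, of 6 oligodendrocyte markers 1 in adults, and of 7 astrocyte markers 3 in adults and 1 at P3. Fibroblast and meningeal markers, with 2 of 10 called higher at P3, summed to 21516 to 47733 at P3 and 16121 to 22559 in adults. Mobp, a gene of central myelin, read 877, 20.4 and 74.2 in adults, and Olig2, among the oligodendrocyte markers, was above background on no array. The part of these cells in the carrier results was not tested.

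The labelled tissue was checked against hair cell and supporting cell markers. Of 9 hair cell markers tested, only Calb2 was called (2.64, adjusted p = 0.0225), higher in adults, and Slc26a5, the outer hair cell motor prestin, was above background on no array. Of 13 supporting cell markers, Gjb6 was called higher in adults and Sox2, Jag1 and Otog higher at P3. Calb2 was lost without adult replicate 1 (0.0661) or adult replicate 3 (0.103), and Otog without any one array but P3 replicate 1 (0.0773 to 0.170).

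Among 20 carrier genes with more than 1 tested probe set, 14 had differences of one sign only. Slc1a2, Slc1a3, Slc7a4, Slc15a2, Slc38a9 and Slc38a10 had both signs. Of the 5 called genes with several tested probe sets, only Slc15a2 had one pointing the other way. Slc38a2 had 2 of 3 and Slc7a2 2 of 4 probe sets called, and in Slc6a14, Slc7a6 and Slc15a2 a single one was called.

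**Figure D4:**
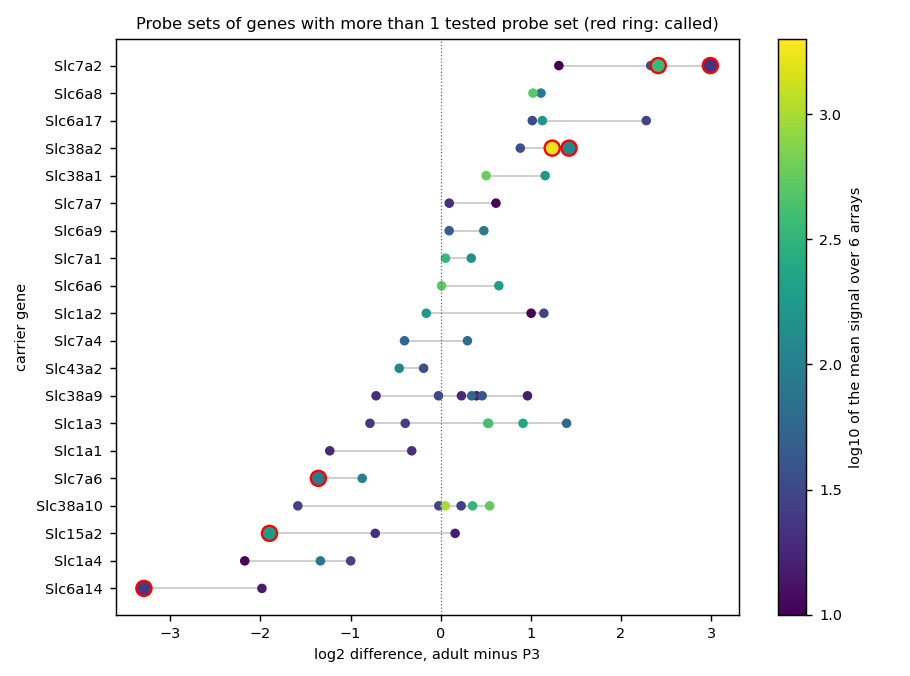
Log2 difference (adult minus P3) of every tested probe set of the 20 carrier genes with more than 1, coloured by the log10 of the mean signal and ringed in red where called. The 4 Slc7a2 probe sets all lie above 0, between 1.31 and 2.99, while the 3 of Slc15a2 spread from -1.90 to 0.16.

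Enzymes and regulators that handle the carried substances were read beside the carriers, at the brightest probe set of each gene. Of 7 enzymes of glutamate, glutamine and aspartate metabolism, 1 was called. Glul (glutamine synthetase), which turns glutamate into glutamine, read 883, 1077 and 904 at P3 and 5566, 3873 and 4019 in adults. All adult arrays lay far above P3, with a difference of 2.22 (SE 0.26, adjusted p = 0.00258) that stayed called without any single array. The mitochondrial and cytosolic aspartate aminotransferases Got2 and Got1 gave 0.78 (adjusted p = 0.130) and 2.54 (0.0804), and Got1 was called without P3 replicate 1 (1.497, 0.0133). Gpt2, an alanine aminotransferase, was called higher at P3 without adult replicate 1 (-1.32, 0.0344). Of 3 vesicular carriers tested, none was called. Slc17a6, a vesicular glutamate carrier, gave 1.04 (0.164), and Slc17a7 gave 1.87 (0.294) and was called without adult replicate 2 (3.02, 0.0477).

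Called genes of serine synthesis and of creatine use differed in direction. In the list for GABA, glycine and serine, 1 of 10 genes was called and the median difference was -0.75. Psph, the last enzyme of serine synthesis, read 310, 474 and 458 at P3 and 136, 192 and 150 in adults, without overlap (-1.37, SE 0.26, adjusted p = 0.0171), lost without replicate 2 (0.0754) or 3 (0.0733) of P3 or replicate 3 of the adults (0.0898). The enzymes before it, Phgdh (-1.11, adjusted p = 0.0558) and Psat1 (-0.81, 0.0556), were lower on every adult array and not called. Gad1, which makes GABA, was called higher at P3 without adult replicate 1 (-3.17, adjusted p = 0.00888). Of 11 genes for taurine, creatine and betaine, 3 were called higher in adults. Ckb, the cytosolic creatine kinase, read 924, 1709 and 1452 at P3 and 5600, 3546 and 5822 in adults, without overlap (1.89, SE 0.33, adjusted p = 0.0138). Its mitochondrial partner Ckmt1 gave 2.42 (0.0235) and Chdh, which makes betaine from choline, gave 2.06 (0.0126). Without adult replicate 3 none of these 3 was called (adjusted p = 0.0822, 0.101 and 0.0732), and Ckmt1 was also lost without P3 replicate 2 (0.0648). Bhmt, which uses betaine, was called higher in adults without P3 replicate 1 (2.64, 0.0273).

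Sensing and breakdown genes gave single calls. Bcat1, the cytosolic branched-chain aminotransferase, read 85.9, 35.7 and 36.2 at P3 and 478, 116 and 212 in adults, the only call of 8 genes (2.24, SE 0.55, adjusted p = 0.0440), lost without P3 replicate 2 (0.116), P3 replicate 3 (0.118), adult replicate 1 (0.102) or adult replicate 3 (0.152). In the amino acid shortage response 2 of 12 genes were called, Nupr1 (1.26, adjusted p = 0.0319) and Cebpb (1.15, 0.0356), both higher in adults, while Atf4, a factor that binds such elements, gave -0.16 (0.749). Nupr1 was lost without P3 replicate 2 (0.0976), P3 replicate 3 (0.0949), adult replicate 2 (0.0625) or adult replicate 3 (0.129), and Cebpb without these or P3 replicate 1 (0.0503 to 0.129). Of 18 genes of amino acid sensing by mTORC1, Rragd, a lysosomal GTPase, was called higher in adults (1.34, adjusted p = 0.0364). Of 6 partners and regulators, Sgk1, a kinase known to raise surface levels of several carriers, was called higher in adults (1.14, 0.0292). Both were lost without P3 replicate 2, P3 replicate 3, adult replicate 2 or adult replicate 3 (adjusted p from 0.0755 to 0.167). None of 5 genes of monoamine synthesis and breakdown was called, with Maoa at -0.91 (0.0508) and Maob at 0.83 (0.292), nor any of 10 for glutathione synthesis, with Gpx4 at 0.90 (0.114) and Gpx1 at 0.42 (0.463). Without P3 replicate 1, Gpx4 (1.18, 0.0114) and the shortage response gene Atf3 (1.91, 0.0261) were called higher in adults, and without adult replicate 2 Sesn3, a sestrin of the mTORC1 list, was called higher at P3 (-1.07, 0.0460).

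**Figure D5:**
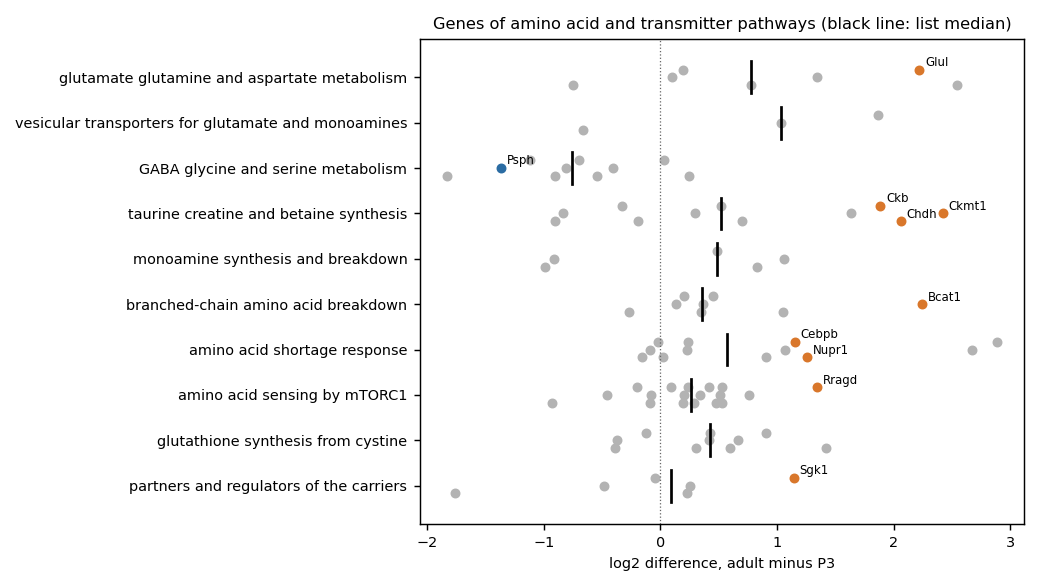
Log2 difference (adult minus P3) of the tested genes of 10 pathway lists at their brightest probe set, with called genes coloured and named and the list median as a black line. The list for GABA, glycine and serine has a median of -0.75, and those of the other 9 lists lie above 0.

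The 18 carrier genes without a tested probe set included carriers best known from kidney and gut, such as Slc3a1, Slc6a19 and Slc15a1, and from neurons, such as Slc6a3, Slc6a5 and Slc32a1. Of these, 9 were above background on no array: Slc3a1, Slc6a3, Slc6a5, Slc6a18, Slc6a19, Slc6a20b, Slc7a12, Slc7a13 and Slc7a15. The remaining 9, Slc1a6, Slc1a7, Slc6a4, Slc6a12, Slc6a16, Slc6a21, Slc7a9, Slc15a1 and Slc32a1, exceeded it on at most 2 arrays at any one probe set. Slc1a6, the glutamate carrier of Purkinje cells, read 1.43, 9.84 and 5.53 at P3 and 104, 1.91 and 1.41 in adults, so that a single adult array carried its signal. Slc36a1os and Slc6a19os, the other opposite-strand transcripts, were above background on no array.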

How the data were processed

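Total RNA from 6 pools of mouse CSE was hybridized to Affymetrix Mouse Genome 430 2.0 arrays. The authors computed MAS5.0 signals with Affymetrix software (GCOS 1.2 per the labels; their methods give another version), and the deposited values are linear signal intensities whose mean, after trimming 2% at each end, was 100 on every array. They were used as deposited, without further normalization, and no detection calls entered. Columns left unmatched to a sample numbered 0. Gene names came from a platform annotation of 2016, which gave 34945 probe sets a single gene, 932 more than one and 9160 no gene. The stages were compared on log2 signals by linear models (limma 3.58.1 under R 4.3.3), with stage as sole term and eBayes moderation along an intensity trend, over the 29036 probe sets above background on 3 or more arrays, background being the 90th percentile of 83 chemoreceptor probe sets. SE is limma's moderated standard error over 3 arrays per stage. Where a stage was above background on no array, a fold is given as "at least", with that stage's signals raised to background. With 3 arrays per stage the smallest p of an exact permutation test is 0.1, so none is given. The authors' methods used SAM, which was run here as an alternative on linear signals, with folds of arithmetic means and 20 relabellings. The procedure was tested on simulated data. The carriers, pathway lists and marker lists (25 lists, 232 of 255 entries matched) were chosen with earlier results of these data known, so no list was tested as a whole. Values in every array are given for each called carrier, and, by family, for the brightest carrier and the largest difference not called. Further carriers were named to account for all members. Alternatives comprised quantile normalization, a common median, stricter and absent signal filters, signals raised to background or with background added, a fit without trend, array weights, a block for replicate number, omission of each array and SAM. The number of arrays limits the precision.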

Additional observations from a re-analysis of the deposited data

How the results depend on the processing

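Directions of the called carriers held under each of the 16 alternatives that tested them, while calls did not. Of the 11 calls, SAM kept 8. Against 8 carrier probe sets called higher in adults and 3 at P3, eBayes without the intensity trend called 2 and 2, array weights called 19 and 12 (with a weight of 0.155 for P3 replicate 1), and SAM called 7 and 4. Leaving out single arrays gave 1 to 10 higher in adults and 1 to 3 at P3, lowest without adult replicate 3, where 1.98% of all probe sets were called. Family medians moved for Slc1 with array weights (-0.93), for Slc15 (-0.50) and Slc43 (-0.46) among probe sets above background on all 6 arrays, and for Slc43 with array weights (-0.33). The Slc7 median moved from 0.09 to 0.41 without P3 replicate 3 and to 0.29 without adult replicate 1. Without single arrays the medians ranged from -0.34 to 0.27 for Slc1, 0.28 to 1.2001 for Slc6, 0.063 to 0.41 for Slc7, 0.48 to 1.26 for Slc15, -0.11 to 0.55 for Slc36, -0.081 to 0.37 for Slc38 and -0.21 to 0.36 for Slc43. Those of Slc36 and Slc43 were below 0 without P3 replicate 1 and that of Slc38 without P3 replicate 2. Slc7 had a median below 0 without a signal filter (-0.011), and Slc43 with signals raised to background (-0.045). Near 0, Slc6a6 ranged from -0.077 to 0.095 without single arrays, below 0 without P3 replicate 2 and without adult replicate 1 or 2 (both -0.02), and Slc36a4 was -0.031 with array weights and ranged from -0.093 to 0.085 without single arrays, below 0 without P3 replicate 1 and without adult replicate 3 (-0.0089). With the replicate number as a block, 11 carrier probe sets were called higher in adults and 4 at P3, adding Slc1a4, Slc6a13 and both probe sets of Slc6a8. The numbers were not taken as pairing the samples, since deviations of same-numbered arrays correlated at 0.182, 0.213 and 0.0762, although every array correlated best with its own number. The causes of these changes were not tested, beyond the smaller number of arrays or probe sets. Signal over background limits the carriers below it on most arrays.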
